A study of Caenorhabditis elegans with 46 samples.

Results

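The genes clec-60 and clec-61 encode C-type lectins of Caenorhabditis elegans and lie close together on chromosome II in the WBcel235 annotation, where they carry the sequence names ZK666.6 and ZK666.7. They were taken as every probe set whose single gene symbol was clec-60 or clec-61. This gave 1 probe set for each, so 2 of the 17118 genes that could be named on the array. Intensities were read in 46 samples, 1 Affymetrix array each. The N2 time course held 2 arrays per group: wild-type worms fasted for 3, 6, 9, 12 or 18 h (adults of day 2), 24 or 36 h (day 3) or 48 h (day 4), and worms fed for 0 h (day 2), 24 h (day 3) or 48 h (day 4). The mutant set held 3 arrays per group, all adults of day 4 in the N2 background: kgb-1, jun-1 and daf-16 mutants and wild-type N2 worms, each fasted and fed. The labels give neither the alleles of the mutants nor how long the worms of the mutant set were fasted. They speak of 2 and 3 independent experiments for the time course and the mutants, so arrays of a group are taken as separate samples.

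C-type lectins are secreted or membrane-bound proteins whose lectin domain can bind sugars. In the worm their gene class is very large, and many members are switched on or off when the animal meets bacteria. In published infection work clec-60 is an intestinal gene that rises strongly with Gram-positive pathogens such as Staphylococcus aureus, under the control of the beta-catenin BAR-1 and the Hox factor EGL-5. It is widely used as a readout of the gut's defence programme. Of the mutated genes, kgb-1 encodes a stress-activated kinase related to JNK, jun-1 encodes a Jun-type subunit of AP-1, and daf-16 encodes the FOXO factor that insulin signalling restrains. The comparisons ask how the level of each lectin depended on food and on these 3 genes.

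All values are deposited intensities unless a log2 difference is named. The lowest value of any probe set was 16.0003, which marks the floor of the scale, and array medians spanned 60.1 to 84.0 (time course) and 60.2 to 85.4 (mutant set). Log2 differences come from limma on log2(intensity + 16) after quantile scaling within each set, and are given ± SE. Each SE rests on a spread shared by all groups of the set, not on that of the compared arrays alone. A gene passed the test at an adjusted p under 0.05 over all 22548 probe sets. Some counts at an unadjusted p under 0.05 are also given. The share of all probe sets at that threshold was not computed, so these counts have no background. The probe set of clec-61 has the manufacturer's suffix for probes shared by more than 1 transcript, and the annotation lists clec-61 alone for it. The pair was proposed with results of the mutant set known, since clec-61 was chosen by its fasted minus fed difference in N2 worms of that set; what brought in clec-60, and which other arrays were seen then, is not recorded. For this reason, values of the pair in N2 worms of the mutant set, and every difference that holds those arrays, are described without a p. Other p-values belong to fits over the whole array and are no independent support for the choice of the pair.

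In wild-type worms clec-61 was near the floor with food and was brighter at each later fasting time, while clec-60 stayed between 26.3 and 43.8 in all 22 time course arrays. Fasted worms gave clec-61 intensities of 21.6 and 16.1 (3 h), 22.6 and 31.5 (6 h), 25.0 and 36.2 (9 h), and 46.2 and 55.0 (12 h). Later fasted worms gave 66.7 and 88.0 (18 h), 88.9 and 128.8 (24 h), 118.8 and 144.2 (36 h), and 204.5 and 289.0 (48 h). Fed worms gave 16.04 and 19.9 (0 h), 22.9 and 18.9 (24 h), and 21.9 and 16.1 (48 h). Both fasted replicates were above the fed worms of 0 h in every group except that of 3 h. After 48 h of fasting 65.1% and 71.1% of the probe sets on an array were dimmer than clec-61, against 0.266% to 8.77% in the fed arrays.

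**Figure D1:**
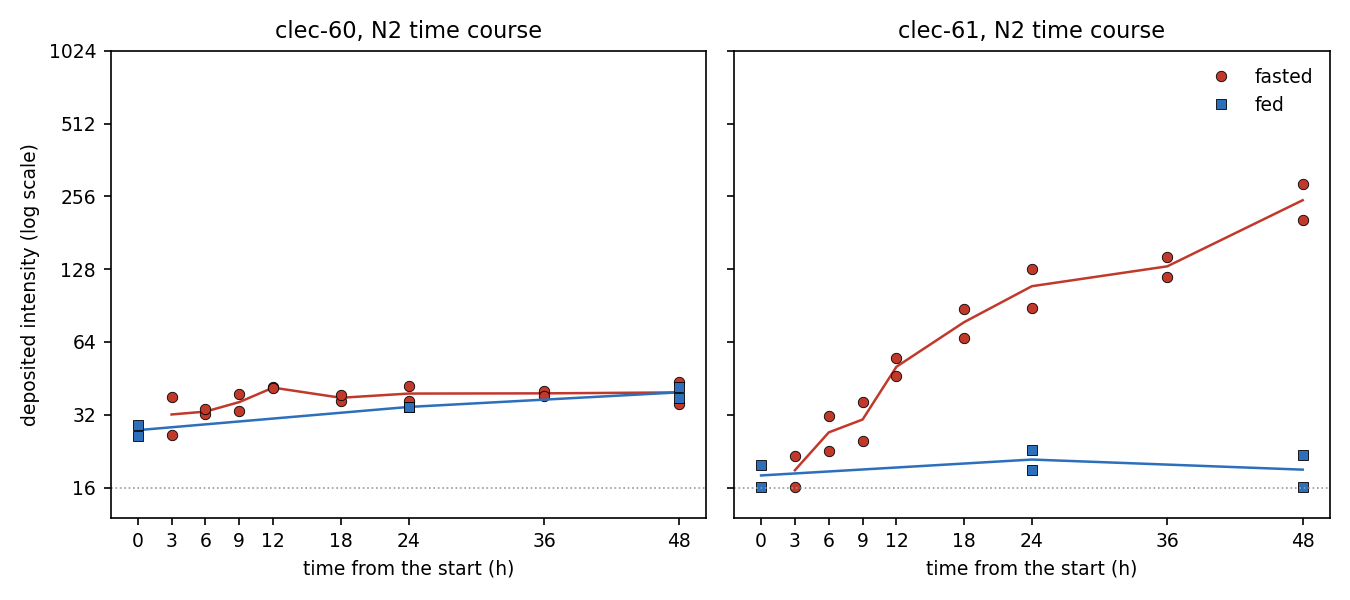
Deposited intensity (log scale) of clec-60 (left) and clec-61 (right) against time in hours in the N2 time course, each point 1 array, with red circles for fasted and blue squares for fed worms, and lines through the means of 2 arrays; the dotted line marks an intensity of 16. The fasted arrays of clec-61 reach 204.5 and 289.0 at 48 h against 21.9 and 16.1 in fed worms, while those of clec-60 stay within 26.4 to 43.8.

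Higher clec-61 passed the test at 12 h and at every later time. Against fed worms of 0 h the log2 difference was 0.04 ± 0.20 (3 h), 0.34 ± 0.20 (6 h) and 0.43 ± 0.20 (9 h), with adjusted p of 1, 0.742 and 0.232 in limma, in comparisons where 1.12%, 2.20% and 9.65% of all probe sets passed. At 12 h it was 0.94 ± 0.20 (adjusted p = 0.00477), where 16.1% passed. It stood at 1.33 ± 0.20 at 18 h (adjusted p = 9.07e-05, 36.6% of probe sets passing) and 1.95 ± 0.20 at 36 h (adjusted p = 1.91e-06, 40.3% passing). These comparisons share 1 pair of fed arrays of day 2 of adulthood. The worms fasted for 3 to 18 h were of the same adult day, and those fasted for 36 h were of day 3, a day on which fed worms (24 h) differed from those of 0 h by 0.11 ± 0.20. Against fed worms of the same age clec-61 rose by 1.68 ± 0.20 at 24 h (adjusted p = 1.93e-05, 32.2% passing) and by 2.74 ± 0.20 at 48 h (adjusted p = 1.15e-07, 30.1% passing). Mean intensity at 48 h was 247 ± 59.7 in fasted and 18.985 ± 4.07 in fed worms (SD, n = 2 each). The fed values lie at or near the floor, so no ratio is given, and the fitted differences depend on the offset of 16. In RNA of whole worms, a change in the number of cells that make a transcript and a change in its amount per cell cannot be told apart. The call at 12 h was lost without replicate 2 of the 12 h group (log2 difference 0.85, adjusted p = 0.0542) and in a fit of all 46 arrays (0.99, adjusted p = 0.112).

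No single step between neighbouring fasting times passed the test. The 7 steps of clec-61 were all upward, from 0.09 to 0.83 on the log2 scale, with adjusted p of 0.320 to 1.00 in limma, and 3 of them had an unadjusted p under 0.05. In time order, the share of all probe sets that passed at the adjusted threshold was 0.0355%, 0.160%, 0%, 5.09%, 0.00443%, 0.0399% and 0%. For clec-60 the 7 steps lay between -0.10 and 0.13, and 0 of them had an unadjusted p under 0.05. The largest step of clec-61 was that from 36 to 48 h, at 0.83 ± 0.20 (adjusted p = 0.653). In that step and in those from 3 to 6 h, 9 to 12 h, 12 to 18 h and 18 to 24 h the 2 later arrays were both above the 2 earlier ones, while at 6 to 9 h and 24 to 36 h they overlapped. Without replicate 1 of the 24 h group the step from 24 to 36 h was -0.14.

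The intensities of clec-60 in fasted worms were 37.8 and 26.4 (3 h), 32.1 and 33.8 (6 h), 33.3 and 39.0 (9 h), and 41.5 and 41.4 (12 h). Worms fasted longer gave 36.7 and 38.6 (18 h), 36.4 and 41.9 (24 h), 40.1 and 38.4 (36 h), and 43.8 and 35.4 (48 h). Fed worms gave 26.3 and 29.0 (0 h), 34.5 and 34.5 (24 h), and 37.4 and 41.8 (48 h). Fasted and fed worms overlapped at 48 h, while at 24 h both fasted arrays were above both fed ones. Against fed worms of the same age the log2 difference was 0.10 ± 0.11 at 24 h (adjusted p = 0.525) and -0.10 ± 0.11 at 48 h (adjusted p = 0.510, 95% interval -0.33 to 0.12).

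Against the day 2 fed worms clec-60 passed at 12 h, at 0.36 ± 0.11 (adjusted p = 0.0269), and at 36 h, at 0.30 ± 0.11 (adjusted p = 0.0338). Fed worms of 48 h differed from those of 0 h by as much, 0.36 ± 0.11, which did not pass (adjusted p = 0.115, where 1.78% of probe sets passed). With the replicate block this difference between fed worms passed in limma (adjusted p = 0.0476). Both calls in fasted worms, at 12 and 36 h, were lost without any 1 of the 4 arrays compared, with adjusted p of 0.0800 to 0.135 at 12 h and 0.0794 to 0.142 at 36 h, and in a fit of all 46 arrays (0.559 and 0.479). Fed worms gave clec-61 a difference of 0.11 ± 0.20 at 24 h and of 0.04 ± 0.20 at 48 h from those of 0 h (adjusted p = 1 and 0.994), and 0.457% of probe sets passed at 24 h.

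In the mutant set each lectin stood out in a different genotype. The lectin clec-61 was bright in fasted N2 worms, much dimmer in fasted kgb-1 worms and near the floor in fasted jun-1 and daf-16 worms. The lectin clec-60 was brightest in fed jun-1 worms, above every array of the other 7 groups. In fasted N2 worms clec-61 read 373, 1127 and 1051, against 27.8, 21.1 and 30.04 in fed N2 worms. Means were 850 ± 415 fasted and 26.3 ± 4.68 fed (SD, n = 3 each), with a log2 difference of 4.13 ± 0.34, which is the value that brought clec-61 to notice. The first fasted replicate was the dimmest, and without it the difference was 4.71.

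**Figure D2:**
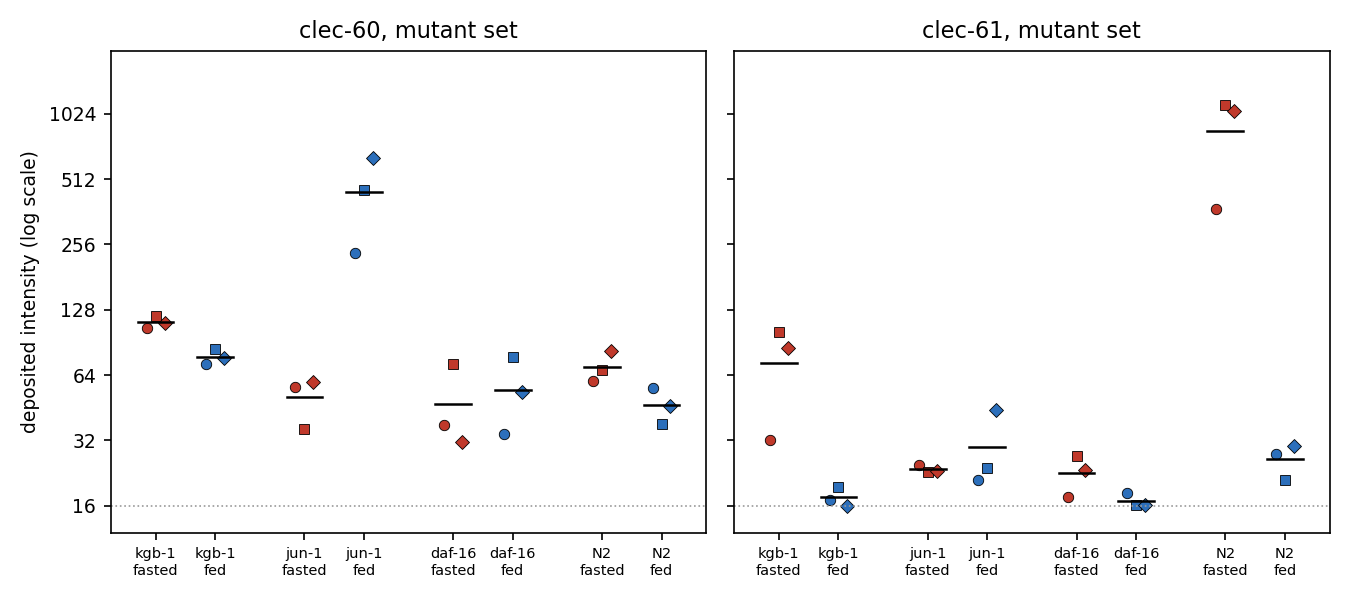
Deposited intensity (log scale) of clec-60 (left) and clec-61 (right) in the mutant set, with fasted (red) left of fed (blue) arrays in each genotype, circles, squares and diamonds for replicates 1, 2 and 3, bars for means of 3 arrays, and a dotted line at 16. The fed jun-1 arrays stand out for clec-60 (234 to 643) and the fasted N2 arrays for clec-61 (373 to 1127).

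In kgb-1 worms clec-61 read 32.3, 100.8 and 85.7 after fasting and 17.02, 19.5 and 16.02 with food. All fasted arrays were above all fed ones, which lay at or near the floor. The first fasted replicate was the dimmest, as in N2. The log2 difference was 1.32 ± 0.34. It did not pass in limma without the replicate block (adjusted p = 0.0835), where 1.00% of probe sets did. With the replicate number as a block it passed (adjusted p = 0.0147), as it did without replicate 1 of the fasted kgb-1 worms (1.70, adjusted p = 0.0174). The kgb-1 response minus the N2 response was -2.81 ± 0.48, and 0.0310% of all probe sets passed in that comparison.

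In jun-1 worms clec-61 read 24.6, 22.8 and 23.1 after fasting and 21.0, 23.9 and 44.0 with food. The groups overlapped, and the log2 difference was -0.25 ± 0.34 (adjusted p = 0.852, 95% interval -0.96 to 0.46). Its sign turned to 0.02 without the brightest fed array, replicate 3. In daf-16 worms it read 17.6, 27.0 and 23.3 after fasting and 18.4, 16.03 and 16.1 with food. These groups overlapped too, with a log2 difference of 0.16 ± 0.34 (adjusted p = 0.931, 95% interval -0.56 to 0.87). Over all probe sets, arrays were least alike in daf-16 worms, with lowest correlations within a group of 0.929 (fasted) and 0.948 (fed). Fed jun-1 worms came next at 0.950, and N2 worms had 0.973 (fasted) and 0.968 (fed). Of all probe sets, 2.95% passed in jun-1 and 4.68% in daf-16 worms. Relative to the N2 response, the response was -4.38 ± 0.48 for jun-1 (0.177% of all probe sets passing) and -3.97 ± 0.48 for daf-16 (0.111% passing). Fasted worms alone differed from fasted N2 worms by -3.14 ± 0.34 (kgb-1), -4.22 ± 0.34 (jun-1) and -4.29 ± 0.34 (daf-16), where 1.39%, 3.67% and 2.10% of all probe sets passed. No array of a fasted mutant came within the N2 range of 373 to 1127.

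Set against each other without N2, the mutants' clec-61 responses did not pass the test: -1.57 ± 0.48 for jun-1 against kgb-1 (adjusted p = 0.688), -1.16 ± 0.48 for daf-16 against kgb-1 and 0.41 ± 0.48 for daf-16 against jun-1 (adjusted p = 1.00 for both), where 0.0621%, 0.142% and 0.0798% of probe sets passed. Among fasted worms, daf-16 minus kgb-1 was -1.15 ± 0.34 (adjusted p = 0.173, and 0.0333 with the replicate block). Fasted jun-1 worms differed from fasted kgb-1 worms by -1.08 ± 0.34 (adjusted p = 0.245). In both of these the arrays of the compared groups did not overlap, and 0.750% and 0.696% of all probe sets passed. Fasted daf-16 and jun-1 worms overlapped, with a difference of -0.07 ± 0.34, where 0.918% passed.

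By mean level clec-61 ordered the 8 groups as fasted N2 (850), fasted kgb-1 (72.9), fed jun-1 (29.7), fed N2 (26.3), fasted jun-1 (23.5), fasted daf-16 (22.6), fed kgb-1 (17.5) and fed daf-16 (16.8). The first and second groups did not overlap. Every later group overlapped its neighbour in this order. Among fed worms, the arrays of kgb-1 (16.02 to 19.5) and daf-16 (16.03 to 18.4) were all below those of N2 (21.1 to 30.04), at log2 differences of -0.33 ± 0.34 and -0.32 ± 0.34, while fed jun-1 worms overlapped N2 at 0.16 ± 0.34.

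In fed jun-1 worms clec-60 read 234, 458 and 643, against 55.6, 38.05 and 46.01 in fed N2 worms. Means were 445 ± 205 and 46.6 ± 8.79 (SD, n = 3 each), a ratio of 9.56 and a log2 difference of 2.91 ± 0.29, where 1.36% of all probe sets passed. Without replicate 1 or replicate 3 of the fed jun-1 worms this was 3.31 or 2.51. Fed jun-1 worms were also higher than fed kgb-1 worms by 2.29 ± 0.29 (adjusted p = 7.69e-05, 1.49% of probe sets passing). Fed daf-16 worms were lower than fed jun-1 worms, at -2.77 ± 0.29 (adjusted p = 1.56e-05, 0.785% passing). The jun-1 gene itself averaged 20.5 in fasted and 19.2 in fed jun-1 worms, against 559 and 705 in fasted and fed N2 worms. The kgb-1 probe set averaged 212 and 187 in fasted and fed kgb-1 worms and 184 and 174 in N2, and that of daf-16 averaged 367 and 413 in daf-16 worms and 624 and 559 in N2; where their probes lie relative to the mutations is not given, so they do not check these labels.

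After fasting, clec-60 fell in jun-1 worms to 56.4, 36.2 and 59.3, and all fasted arrays were below all fed ones. Within a replicate number the ratio of fasted to fed worms was 0.240, 0.0792 and 0.0922. The log2 difference was -2.78 ± 0.29 (adjusted p = 2.49e-06). In kgb-1 worms clec-60 read 105.0, 119.4 and 111.4 after fasting and 72.0, 84.8 and 76.3 with food, without overlap and with ratios of 1.46, 1.41 and 1.46. Its log2 difference of 0.39 ± 0.29 did not pass (adjusted p = 1.00). That SE pools the spread of all groups of the mutant set and is not the scatter of the kgb-1 arrays. N2 worms gave 59.9, 67.3 and 82.5 after fasting and 55.6, 38.05 and 46.01 with food, again without overlap in deposited intensity and at 0.37 ± 0.29. By the share of dimmer probe sets on an array these N2 groups did overlap, at 43.61% for fasted and 43.67% for fed replicate 1. In daf-16 worms the groups overlapped, with 37.8, 72.3 and 31.4 after fasting, 34.1, 77.3 and 53.3 with food, and a log2 difference of -0.21 ± 0.29 (adjusted p = 0.867).

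The clec-60 response of jun-1 worms differed from that of kgb-1 worms by -3.17 ± 0.41 (adjusted p = 0.00124), where 14 of the 22548 probe sets, or 0.0621%, passed. The daf-16 response minus the jun-1 response was 2.56 ± 0.41 (adjusted p = 0.00920, 0.0798% of probe sets passing). The daf-16 response minus the kgb-1 response was -0.60 ± 0.41 (adjusted p = 1.00). Relative to N2, the clec-60 response was -3.15 ± 0.41 in jun-1, -0.59 ± 0.41 in daf-16 and 0.02 ± 0.41 in kgb-1 worms. In kgb-1 worms clec-60 was above N2 in every array both after fasting (105.0 to 119.4 against 59.9 to 82.5) and with food (72.0 to 84.8 against 38.05 to 55.6), by 0.64 ± 0.29 and 0.62 ± 0.29, where 1.90% of all probe sets passed between fed kgb-1 and fed N2 worms. The other differences from N2 were -0.24 ± 0.29 in fasted jun-1 worms, -0.45 ± 0.29 in fasted daf-16 worms and 0.14 ± 0.29 in fed daf-16 worms. Fasted daf-16 worms differed from fasted kgb-1 worms by -1.09 ± 0.29 (adjusted p = 0.109, and 0.0333 with the replicate block), and fasted jun-1 worms by -0.88 ± 0.29 (adjusted p = 0.305).

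By mean level clec-60 ordered the groups as fed jun-1 (445), fasted kgb-1 (112), fed kgb-1 (77.7), fasted N2 (69.9), fed daf-16 (54.9), fasted jun-1 (50.6), fasted daf-16 (47.2) and fed N2 (46.6). In deposited intensity the first group did not overlap the second, nor the second the third, and from fed kgb-1 down each group overlapped the next. By the share of dimmer probe sets on an array, fed kgb-1 worms (49.74% to 52.52%) were just above fasted N2 worms (43.61% to 49.64%). Across all 46 arrays, centred within each set, the log2 values of clec-60 and clec-61 correlated at 0.05 (Pearson), at 0.34 over the 22 time course arrays and at 0.03 over the 24 mutant set arrays. These are descriptions over arrays that share groups and experiments.

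**Figure D3:**
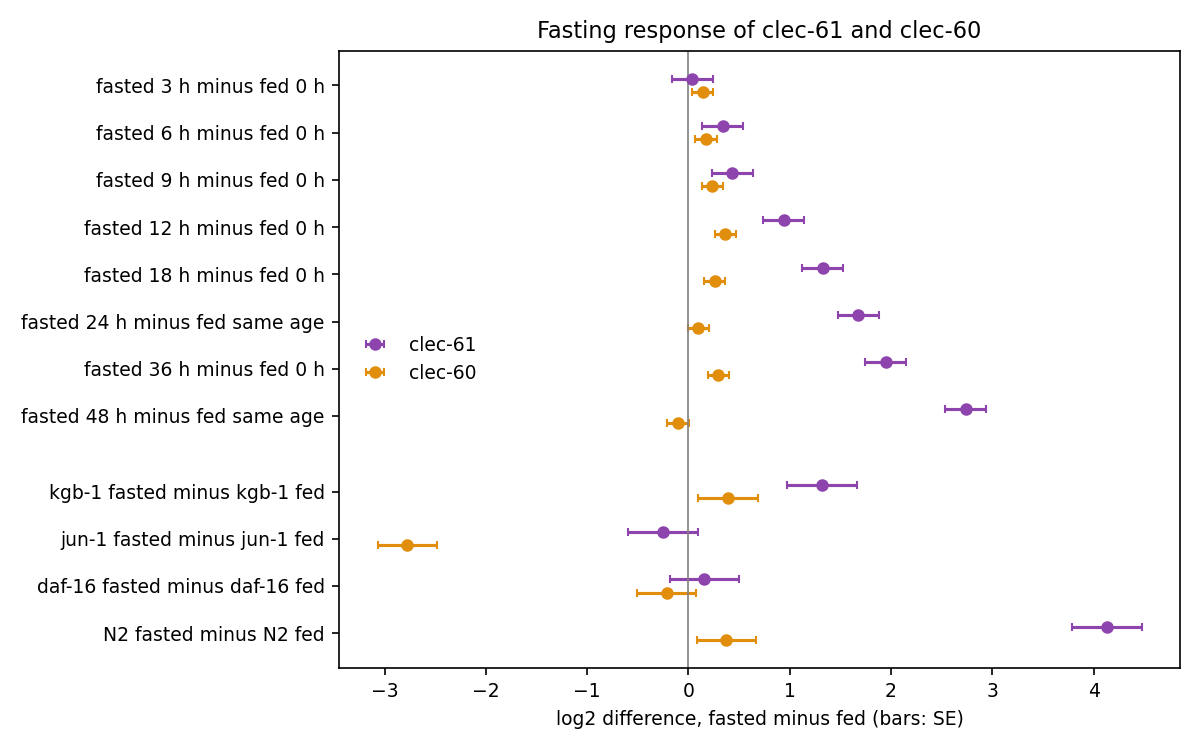
Log2 difference of fasted minus fed worms (points, with SE bars) for clec-61 (purple) and clec-60 (orange) at each time of the N2 course and in each genotype of the mutant set. The clec-61 values move up to 2.74 at 48 h and stand at 1.32 (kgb-1), -0.25 (jun-1), 0.16 (daf-16) and 4.13 (N2), while clec-60 leaves the neighbourhood of 0 most in jun-1 worms, at -2.78.

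The intestine, where clec-60 is known to be expressed, was represented by 6 measured markers (elt-2, ges-1, vha-6, act-5, ifb-2 and asp-1; opt-2 was not found), none of them below 53.8 in any array. Their summed intensity was lower after fasting in every genotype, at 2754 to 4740 fasted and 8954 to 13799 fed in kgb-1, 1383 to 1809 and 6362 to 6938 in jun-1, 3161 to 7669 and 8908 to 9862 in daf-16, and 3523 to 5088 and 10267 to 12893 in N2. The jun-1 sums were the lowest in either condition. The brightest of the 6 in N2 worms was asp-1, an aspartyl protease gene, which averaged 2322 in fasted and 8298 in fed N2 worms and so made up most of these N2 sums. By limma vha-6 and asp-1 fell in kgb-1, act-5, ifb-2 and asp-1 in jun-1, vha-6, act-5 and ifb-2 in daf-16, and act-5 and asp-1 in N2 worms, and in these comparisons 0.789%, 2.13%, 2.43% and 2.17% of all probe sets fell. The gut transcription factor gene elt-2 and the esterase gene ges-1 did not pass in any genotype, with log2 differences of -0.33 to 0.05 for elt-2 and of -0.73 to 0.35 for ges-1. In N2 worms elt-2 averaged 225 fasted and 202 fed, and ges-1 406 fasted and 290 fed. In the time course the sum was 6793 and 8271 after 48 h of fasting and 9658 and 9808 in fed worms of that age. There act-5 and asp-1 fell (14.1% of all probe sets did) while ges-1 rose by 0.69 ± 0.18 (adjusted p = 0.00768), and elt-2 averaged 383 fasted and 225 fed without passing (adjusted p = 0.144). Lower sums were not particular to the gut. Body muscle markers (myo-3, unc-54 and unc-15) summed to 484 to 713 fasted and 965 to 1488 fed in kgb-1. In jun-1 they summed to 595 to 646 fasted and 1575 to 2197 fed, while in daf-16 and N2 worms the fasted and fed sums overlapped. Neuron marker sums overlapped in kgb-1, at 2820 to 3292 fasted and 2556 to 2907 fed. Pharynx marker sums were higher after fasting in kgb-1, at 368.2 to 405.1 against 286.6 to 357.5 fed, and overlapped in jun-1, daf-16 and N2 worms. The part of any of these markers in the values of the pair was not tested.

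Other infection-induced gut genes, reported by published work on Gram-positive infection, were set beside the pair: the lectins clec-52, clec-70 and clec-71, the lysozymes lys-5, ilys-2 and ilys-3, the flavin monooxygenase fmo-2, the exchange factor gene exc-5 and the cytochrome P450 cyp-37B1. At 48 h of the time course 4 of the 9 rose and 2 fell (30.1% of all probe sets passed), with a median of 0.79 against -0.02 for all probe sets. The lysozyme ilys-3 had 5.09 ± 0.27 and ilys-2 had 4.32, while clec-71 had -0.41 and lys-5 had -0.51. In kgb-1 worms of the mutant set, where 0.213% of all probe sets rose and 0.789% fell, ilys-3 rose by 2.31 ± 0.51 (adjusted p = 0.0244) and clec-71 fell by 0.58. In jun-1 worms lys-5 fell by 0.86 and 0 of the 9 rose in limma (3 at an unadjusted p under 0.05), while 0.820% of all probe sets rose. With the replicate block 2 rose there, ilys-2 and ilys-3, and 1 fell. In daf-16 worms 3 of the 9 rose, against 2.25% of all probe sets, with fmo-2 at 2.56 and cyp-37B1 at 2.71 beside 0.16 for clec-61. In N2 worms of the mutant set 3 of the 9 rose, where 5.57% of all probe sets passed and 3.40% rose, and with the replicate block 4 rose and 1 fell. The shares of all probe sets are at the adjusted threshold and from the fit without the block, so they are no background for the unadjusted count. The 3 lectins of this list did not rise in any of these comparisons.

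**Figure D4:**
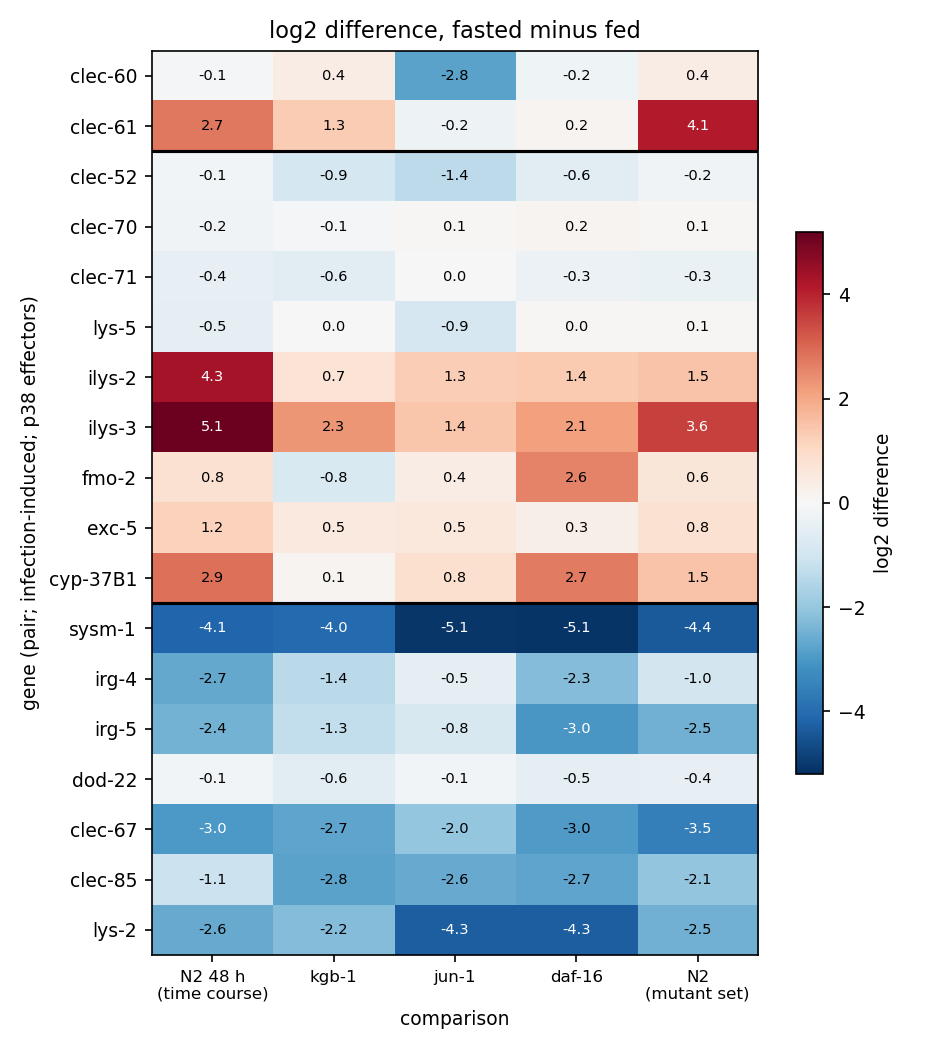
Log2 difference of fasted minus fed worms (colour and printed value) for the pair (top), 9 infection-induced gut genes (middle) and 7 effectors of the p38 pathway (bottom), in the 48 h comparison of the time course and in each genotype of the mutant set. The row of clec-61 runs 2.74, 1.32, -0.25, 0.16 and 4.13, while sysm-1 lies between -5.11 and -4.04 in all columns.

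The p38 kinase pathway is the other main arm of the worm's gut defence. Of the 7 p38 immune effectors listed, 6 fell at 48 h and 0 rose (0 at an unadjusted p under 0.05), with a median of -2.62, where 14.1% of all probe sets fell. In the mutant set 3 fell in kgb-1 (5 with the replicate block), 4 in jun-1, 6 in daf-16 and 5 in N2 worms, against 0.789%, 2.13%, 2.43% and 2.17% of all probe sets, and 0 rose in any genotype (0 at an unadjusted p under 0.05). The effector sysm-1 had -4.11 ± 0.28 at 48 h and -4.04, -5.05, -5.11 and -4.37 in the kgb-1, jun-1, daf-16 and N2 groups. The lectin clec-67 fell in the same 5 comparisons, at -3.01, -2.74, -2.01, -2.96 and -3.55 in that order. Of the 218 other C-type lectins on the array, 16 rose and 22 fell at 48 h, so 17.4% passed, against 30.1% of all probe sets. In the mutant set 2 rose and 12 fell in kgb-1, 2 and 20 in jun-1, 7 and 15 in daf-16 and 3 and 18 in N2 worms. As shares of the 218, 0.917%, 0.917%, 3.21% and 1.38% rose in these genotypes, against 0.213%, 0.820%, 2.25% and 3.40% of all probe sets. The shares that fell were 5.50%, 9.17%, 6.88% and 8.26%, against 0.789%, 2.13%, 2.43% and 2.17% of all probe sets. With the replicate block 24 passed in kgb-1 and 33 in N2 worms. The share of all probe sets passing with the block was not computed, so the blocked counts have no background. The median difference of these lectins was between -0.05 and -0.02 in each of these comparisons.

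Of the 3 regulators that published work ties to the gut's response to Staphylococcus aureus, the helix-loop-helix factor gene hlh-30 rose at 48 h by 0.89 ± 0.22 (adjusted p = 0.00487) and in daf-16 worms by 0.94 ± 0.21 (adjusted p = 0.00874), and bar-1 rose at 48 h by 0.36 ± 0.12 (adjusted p = 0.0356). The Hox gene egl-5 stood at -0.06 at 48 h and did not pass. Of all probe sets, 30.1% passed at 48 h and 4.68% in daf-16 worms. In kgb-1, jun-1 and N2 worms of the mutant set 0 of the 3 passed in limma, and 1 in each, hlh-30, had an unadjusted p under 0.05. In these genotypes 1.00%, 2.95% and 5.57% of all probe sets passed at the adjusted threshold. The values of hlh-30 there were 0.50, 0.67 and 0.65, with adjusted p of 0.699, 0.106 and 0.0822, and 0.352, 0.0428 and 0.0357 with the replicate block.

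Of the 3 protein-coding genes annotated on each side of the pair, 4 had a probe set, and neither of the 2 genes between clec-60 and clec-61 had one. The lectin clec-59, directly before clec-60, had fasted minus fed differences of 0.06 at 48 h, -0.17 in jun-1 and 0.06 in N2 worms. The lectin clec-58 fell in kgb-1 (-0.55, adjusted p = 0.0338), jun-1 (-0.51, adjusted p = 0.0281) and N2 worms (-0.50 ± 0.13, adjusted p = 0.0206). In these genotypes 0.789%, 2.13% and 2.17% of all probe sets fell. The clec-58 differences in daf-16 worms (-0.36 ± 0.13, adjusted p = 0.147) and at 48 h (-0.38 ± 0.28, adjusted p = 0.353) had the same sign and did not pass in limma. Its mean intensity was 28.9 fasted and 50.3 fed in kgb-1, 20.1 and 33.3 in jun-1, and 29.4 and 47.4 in N2 worms. The genes ZK666.4 and ZK666.8 did not pass in any fasting comparison of the mutant set or at 48 h. In fed jun-1 against fed N2 worms, where clec-60 had 2.91, the 4 neighbours lay between -0.28 and 0.24.

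The genes most like each lectin were taken by Pearson correlation of quantile-scaled log2 values over all 46 arrays, centred within each set. For clec-61 these were stdh-1, a steroid dehydrogenase gene (r = 0.907), lipl-4, a lysosomal acid lipase (0.895), T02G5.7 (0.889), the helix-loop-helix gene hlh-13 (0.886) and the adducin gene add-2 (0.876). The fasting differences of lipl-4 were 1.27 at 48 h and 0.87, 0.33, -0.10 and 1.97 in the 4 genotypes (kgb-1, jun-1, daf-16, N2), and stdh-1 had 0.67 at 48 h and 0.84, 0.08, 0.05 and 1.78. Over the 22 time course arrays alone the closest were F40G12.5 and F58H1.7 (0.976 each), F19C7.2 (0.973), pdcd-2 (0.966) and Y53F4B.45 (0.965). In the mutants some of these had other values than clec-61: F40G12.5 had 2.20 in jun-1 worms and Y53F4B.45 had 3.11 in daf-16 worms.

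For clec-60 the closest genes over all arrays were the F-box gene fbxa-165 (r = 0.809), the C-type lectin clec-86 (0.709), C36C5.12 (0.704), fip-1 (0.687) and zag-1 (0.672). The lectin clec-86 had log2 differences of 2.38 in fed jun-1 against fed N2 worms and of -3.91 in fasted against fed jun-1 worms, and fbxa-165 had 1.12 and -0.97. At 48 h of the time course clec-86 had -1.59, beside -0.10 for clec-60. Within the time course the closest were nssp-63 (0.767), rnp-9 (0.764), ugt-1 (0.752), ugt-27 (0.734) and spin-1 (0.733), over a range of clec-60 of only 26.3 to 43.8.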

How the data were processed

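RNA of 46 samples was measured on 1 Affymetrix array each. Each deposited value is a probe set's intensity on a linear scale, and the submitters' processing notes name PLIER as the authors' tool; the version and normalization are not given in the sources used here. Of 22625 probe sets, 77 controls were left out. The platform annotation gave 20766 of the 22548 others 1 symbol (20701 in the WBcel235 gene table), 887 several and 895 none. Array medians differed by 0.39 (log2, time course) and 0.41 (mutant set), above a limit of 0.2, so log2(intensity + 16) values were quantile scaled within each set. R 4.3.3 and limma 3.58.1 (lmFit, eBayes with trend, 1 coefficient per group) gave two-sided tests with Benjamini-Hochberg adjustment over all probe sets. On simulated arrays the fit was checked against known changes. The number of arrays per group limits precision.

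In the mutant set same-numbered fasted and fed arrays deviated together (correlations of 0.23 to 0.74 over 12 pairs). The main fit did not use this pairing, so SE and p-values are unpaired unless the block is named. Blocked values, which do use it, stand beside calls they change and counts they move by over 1.5 times. A list gene was represented by its probe set with the highest mean. Named genes were both members, the members of the 3 short lists, the 3 genes on each side of the pair, and the 5 genes most correlated with each member. Members and lists were chosen with earlier results of these data known. Alternatives were the values as deposited, offsets of 0, 1 and 50, brighter probe sets, no trend, all 46 arrays in 1 fit, the replicate block, every probe set of a list gene and each array left out.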

Additional observations from a re-analysis of the deposited data

Results flagged for a closer look

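The clec-60 response to fasting differed between mutants by limma's interaction test: by -3.17 on the log2 scale for jun-1 minus kgb-1 worms (adjusted p = 0.00124) and by 2.56 for daf-16 minus jun-1 worms (adjusted p = 0.00920). By deposited intensity, all 3 fasted arrays were below all 3 fed ones in jun-1 worms, while in N2 worms all 3 were above. The N2 separation was not kept by the share of dimmer probe sets on an array, at 43.61% for fasted and 43.67% for fed replicate 1. The jun-1 response minus the N2 response, -3.15, was not tested because the N2 arrays took part in bringing the pair to notice. No group held 4 or more arrays, so single arrays were not tested for standing apart.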

How the results depend on the processing

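The fall of clec-60 in jun-1 worms and the high clec-61 of N2 worms fasted for 18, 24, 36 and 48 h kept their direction and their side of the threshold under every alternative run. For clec-60, the 12 and 36 h differences from fed worms became 0.38 and 0.31 in 1 fit of all arrays and no longer passed, and neither passed with any 1 array left out (0.34 to 0.39 and 0.27 to 0.32). At 18 h clec-60 passed on the values as deposited (0.30) and with the replicate block (0.26), and its difference between fed worms of 48 and 0 h passed with the block (0.36). The clec-61 difference at 12 h was 0.99 in the fit of all arrays, where it did not pass, and 0.85 to 1.03 with 1 array left out.

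The clec-61 difference in kgb-1 worms passed on the values as deposited (1.31), with the replicate block (1.32), with offsets of 0 (1.92) and 1 (1.86) and in the fit of all arrays (1.30), and ran from 1.08 to 1.70 with 1 array left out. With the replicate block, fasted daf-16 minus fasted kgb-1 worms passed for clec-60 (-1.09) and clec-61 (-1.15). The block raised the calls to 5 (N2) and 3 (jun-1) for infection-induced genes, to 5 for p38 effectors in kgb-1, to 58 (48 h), 33 (N2) and 24 (kgb-1) for other lectins, and to 1 each in N2 and jun-1 for regulators. It changed no other call of the pair. In the 48 h comparison and the fasted minus fed comparison of each genotype it moved no other list count by over 1.5 times. Elsewhere it did, as for the 218 other lectins at 24 h of fasting (41 passing without and 66 with the block). Without the block that was 18.8% of these lectins, below the 32.2% of all probe sets. The share of all probe sets passing with the block was not computed. In both sets the sample titles give only a replicate number. In the time course, where a comparison has 2 pairs, same-numbered fasted and fed arrays correlated at 0.36 to 0.62, and 22 of 22 arrays were closest to their own number. In the mutant set 24 of 24 arrays were.

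Offsets of 0, 1 and 50 gave clec-61 in N2 4.79, 4.74 and 3.35, its jun-1 minus N2 response -5.15, -5.09 and -3.50, its daf-16 minus N2 response -4.52, -4.48 and -3.27, and the jun-1 minus N2 response of clec-60 -3.62, -3.58 and -2.54. With 1 array left out, clec-61 in N2 ran from 3.81 to 4.71, and its response relative to N2 from -3.39 to -2.43 (kgb-1), -4.96 to -4.06 (jun-1) and -4.55 to -3.66 (daf-16). Its fasted mutant minus fasted N2 differences ran from -3.72 to -2.75 (kgb-1), -4.80 to -3.90 (jun-1) and -4.87 to -3.97 (daf-16). For clec-60 the jun-1 minus N2 response ran from -3.56 to -2.75 and fed jun-1 minus fed N2 from 2.51 to 3.31.

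Signs turned in differences that had not passed. On the values as deposited these were the clec-60 steps from 24 to 36 h (0.0039) and 36 to 48 h (0.0051), and clec-61 in fed daf-16 minus fed kgb-1 worms (-0.0293). With 1 array left out, clec-60 ran from -0.0563 to 0.33 at 3 h and -0.22 to 0.0147 at 48 h, and its steps from -0.16 to 0.23 (3 to 6 h), -0.0198 to 0.10 (18 to 24 h), -0.0585 to 0.0566 (24 to 36 h) and -0.15 to 0.0820 (36 to 48 h). For clec-61 the ranges were -0.0779 to 0.15 at 3 h, -0.0890 to 0.16 between fed worms of 48 and 0 h, -0.0664 to 0.25 and -0.14 to 0.46 in the steps from 6 to 9 h and 24 to 36 h, -0.43 to 0.0211 in jun-1, -0.0241 to 0.0567 in fed daf-16 minus fed kgb-1 and -0.14 to 0.0304 in fasted daf-16 minus fasted jun-1 worms. Among untested differences from N2, with 1 array left out, the kgb-1 response of clec-60 ran from -0.12 to 0.14 (-0.0345 to 0.0477 under the other alternatives), clec-60 in fed daf-16 minus fed N2 worms from -0.0580 to 0.35, and clec-61 in fed jun-1 minus fed N2 worms from -0.11 to 0.34. The cause of these changes was not tested. With brighter probe sets only, clec-60 gave values for the fasting comparisons of the mutant set and the responses relative to N2, while clec-61 and the time course gave none because the members were dimmer than the limit. Near the floor of 16 differences are compressed, which limits the low values of clec-61.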
